A study of Mus musculus with 14 samples.

Results

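The collagen chain genes are the genes that encode the alpha chains of the collagens. They were taken here as every gene whose symbol has the form Col, a number, a and a number, measured by a probe set with exactly 1 gene symbol, and a gene with several probe sets was represented by the brightest on average. This gave 44 genes among the 22180 tested, of which 11 are fibrillar, 8 belong to basement membranes and 25 to other collagen classes. Livers of 14 male C57BL/6 mice were profiled, 1 mouse per Affymetrix array, and values are log2 intensities. All mice carried Alb-cre+, a Cre recombinase driven by the albumin promoter, so that floxed Lmna is recombined in hepatocytes. Lmna is the gene of the A-type lamins of the nuclear envelope. The labels do not say whether it is also recombined in other liver cells. WT livers were LMNA +/+; Alb-cre+ on normal chow (n = 2, aged 24.6 and 27 weeks). HET livers were LMNA flx/+; Alb-cre+, on chow (n = 3, 24 to 26.4 weeks) or on a high-fat diet (n = 3, 30 to 30.4 weeks). KO livers were LMNA flx/flx; Alb-cre+, on chow (n = 3, 38.9 weeks) or on the high-fat diet (n = 3, 35.3 weeks). The high-fat diet (HFD) was the Surwit Diet, and its drinking water held 42 g/L of sugar (55% fructose, 45% sucrose). Both diets lasted 14 weeks. Arrays are named by a letter and a number, and values are given in the order G1 and N1 (WT), F1, F2 and P1 (HET on chow), H1, H2 and I1 (KO on chow), A2, B1 and B2 (HET on HFD) and C2, C3 and C4 (KO on HFD). No WT mice were on HFD, and KO mice were older than HET mice on either diet, so that genotype and age cannot be told apart. On HFD, HET mice were older and KO mice younger than on chow, so that diet and age cannot be told apart either.

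Collagens are secreted as trimers of alpha chains wound into a triple helix. Fibrillar collagens, above all types I and III, form the fibres of scar tissue and of the portal tracts. Type IV forms the sheet-like network of basement membranes, and type VI forms beaded filaments around cells. In liver the fibrillar and type VI chains come mainly from hepatic stellate cells and portal fibroblasts, and type IV chains also from endothelium, whereas hepatocytes are a source of type XVIII. New chains are hydroxylated and folded in the endoplasmic reticulum, trimmed at their ends outside the cell, cross-linked, and later cut by matrix metalloproteinases.

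The tissue and the deletion were checked first. Alb, the gene of serum albumin, lay between 13.36 and 13.53 in all 14 livers. Lmna lay at 4.44 to 4.50 in WT, at 4.25 to 4.40 in HET and 3.67 to 4.09 in KO livers on chow, and at 4.07 to 4.30 in HET and 3.90 to 4.07 in KO livers on HFD. The KO values were below those of HET on chow, while on HFD the groups overlapped slightly, the highest KO liver (4.074) being above the lowest HET liver (4.067). Correlations between arrays over all genes ran from 0.980 to 0.994.

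Collagen chains lay on both sides of the array median, and those mostly below it are called dim here. The median of an array over all probe sets lay between 2.21 and 2.30, and 23 of the 44 genes were below it in at least 7 arrays, among them 4 fibrillar, 4 basement membrane and 15 other chains. The 23 had means over the 14 arrays from 1.49 to 2.30. In contrast, 19 genes were above the array median in all 14 livers. The brightest were Col18a1, whose product yields endostatin, with a mean of 8.82, and Col14a1, a chain that sits on fibril surfaces, with 7.71. Col6a1 followed at 6.38, Col3a1 at 5.86, Col4a1 at 5.66 and Col1a1 at 5.44. Intensities of different probe sets are not on a common scale per length, so this order describes the signals and not the amounts of the chains.

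In KO livers a group of 8 collagen chains was higher than in HET livers, and no chain was lower. The comparison asks whether livers with both Lmna copies floxed differ from those with 1 floxed copy, and takes the mean of KO minus HET over chow and HFD from 1 limma fit of all 14 arrays. A gene is called at an adjusted p under 0.05 over all genes. The 8 were the fibrillar chains Col1a1, Col1a2 and Col3a1, the basement membrane chains Col4a1, Col4a2 and Col15a1, and the type VI chains Col6a1 and Col6a3. They made up 3 of 11 fibrillar, 3 of 8 basement membrane and 2 of 25 other chains. That is 18.2% of the collagen genes, where 6.52% of all genes were called higher (9.43% in either direction). The median difference over the 44 genes was 0.06, against -0.02 over all genes, so most chains lay near no difference. Among genes with a mean of at least 4, 7 of 13 collagen genes were called, all higher, where 21.5% of 9857 genes were called in either direction. As an alternative, each array was first centred on its own median over the 22180 genes. This lowered KO against HET by 0.17 over both diets, by 0.22 on HFD and by 0.12 on chow. After this shift 8 chains were higher and 5 lower over both diets, where 26.9% of all genes were called.

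**Figure D1:**
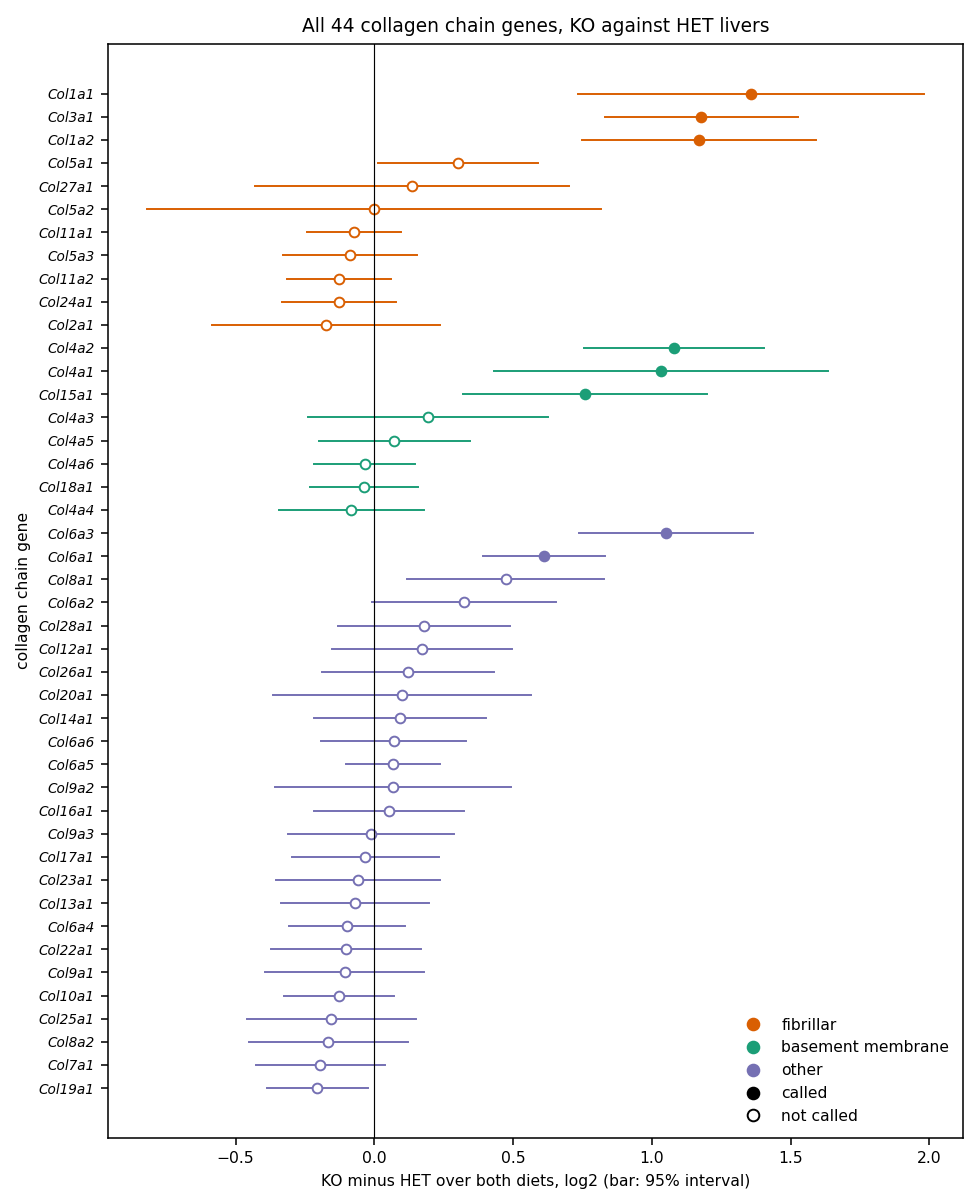
KO minus HET over both diets (x axis, log2) for all 44 collagen chain genes (y axis), coloured by class, with 95% intervals from the fit as bars and filled points for the 8 called genes. The called genes lie between 0.61 and 1.36, and the other points scatter around 0.

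Read diet by diet, 2 chains were called on chow and 6 on HFD, again without a call in the other direction. On chow these were Col4a2 and Col6a3, 2 of 44, where 1.44% of all genes were called higher (1.92% in either direction). On HFD these were Col1a1, Col1a2, Col3a1, Col4a2, Col6a1 and Col6a3, 6 of 44 or 13.6%, where 5.5% of all genes were called higher (7.56% in either direction). Against WT on chow, 3 chains were called higher in KO livers, Col3a1, Col6a1 and Col6a3, where 1.24% of all genes were called higher (1.65% in either direction). KO and HET values did not overlap for 9 chains on chow, 8 with KO above, where 18.9% of all genes did not overlap. On HFD they did not overlap for 10 chains, 9 with KO above, where 26.2% of all genes did not. Over all 6 KO and 6 HET livers, 4 chains were separated completely, Col3a1, Col4a2, Col6a1 and Col6a3, where 4.64% of all genes were. Centring on the array medians left the chow calls at 2 and 3, but gave 6 higher and 6 lower chains on HFD, where 20.1% of all genes were called, with Col18a1 among the lower ones.

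Of the fibrillar chains, Col1a1, Col1a2 and Col3a1 had the largest differences on HFD. Col1a1, the major chain of type I collagen, measured 5.02 and 3.83 in WT livers, 6.09, 5.24 and 4.64 in HET and 5.52, 5.83 and 6.55 in KO livers on chow. The HFD values were 4.02, 4.58 and 5.01 in HET livers and 6.74, 6.18 and 6.90 in KO livers. The 3 KO livers on HFD were thus above all HET livers, while on chow the groups overlapped because F1, the first HET mouse, lay within the KO range. The difference was 2.07 ± 0.41 (SE) on HFD, a 4.19-fold higher level (adjusted p = 0.0080), and 0.65 ± 0.41 on chow (adjusted p = 0.552). The interaction of genotype and diet for Col1a1, 1.42 ± 0.58, did not pass (adjusted p = 0.445).

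Col1a2, the partner chain of type I collagen, measured 4.59 and 4.43 in WT, 5.36, 4.73 and 4.40 in HET and 5.24, 5.67 and 5.90 in KO livers on chow. On HFD the values were 4.22, 4.60 and 5.12 in HET and 6.43, 5.85 and 6.37 in KO livers. As for Col1a1, the groups were apart on HFD and overlapped on chow through the same HET mouse. Its difference was 1.57 ± 0.28 on HFD, 2.96-fold (adjusted p = 0.00409), and 1.17 ± 0.19 over both diets (adjusted p = 0.00202). A second, dim probe set of Col1a2, with a mean of 1.88, was also higher on HFD, by 0.57 ± 0.13 (adjusted p = 0.0157).

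Col3a1, the chain of type III collagen, which forms thin reticular fibres, measured 5.57 and 5.02 in WT, 5.92, 5.39 and 5.25 in HET and 5.96, 6.51 and 6.77 in KO livers on chow. Livers on HFD had 5.02, 5.28 and 5.34 in HET and 6.70, 6.50 and 6.83 in KO livers. Every KO liver was above every HET and WT liver, on chow by a narrow margin. The difference was 1.46 ± 0.23 on HFD, 2.76-fold (adjusted p = 0.00195), 1.12 ± 0.25 against WT (adjusted p = 0.0451) and 0.89 ± 0.23 against HET on chow (adjusted p = 0.0700). The call against WT was lost on leaving out any of 11 of the 14 arrays (adjusted p from 0.0555 to 0.372), and the difference from HET on chow was called without F1 or without H1, the first HET and the first KO mouse on chow (adjusted p from 0.0219 to 0.0438).

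These were the fibrillar genes that were called, and the upstream sequences of Col1a2 and Col3a1 are printed so that their start regions can be set side by side. RefSeq (GRCm38.p6) windows were matched for 35 of the 44 genes, and each sequence runs 5′ to 3′ and ends at the base before the start site. Capitals mark matches, on either strand, to 5 short motifs: TATAAA for the TATA box, CCAAT for the box of that name, GGGCGG for the GC box, CAGACA for the core bound by SMAD proteins and TGANTCA for AP-1.
Col1a2, chr6:4505368-4505617, plus strand: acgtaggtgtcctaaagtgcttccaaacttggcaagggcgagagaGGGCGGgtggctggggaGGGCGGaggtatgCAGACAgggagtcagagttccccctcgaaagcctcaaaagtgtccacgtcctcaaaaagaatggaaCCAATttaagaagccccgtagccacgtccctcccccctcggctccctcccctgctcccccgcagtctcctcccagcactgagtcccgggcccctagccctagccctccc
Col3a1, chr1:45311288-45311537, plus strand: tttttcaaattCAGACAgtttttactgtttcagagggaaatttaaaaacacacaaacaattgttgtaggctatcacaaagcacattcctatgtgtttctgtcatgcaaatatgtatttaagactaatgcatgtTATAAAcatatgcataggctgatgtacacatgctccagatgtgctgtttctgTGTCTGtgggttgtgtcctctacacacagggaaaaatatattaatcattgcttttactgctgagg
The Col1a2 window holds CCAAT at 109 bases, GGGCGG at 205 and 188 bases and CAGACA at 175 bases before the start. The Col3a1 window holds TATAAA at 117 bases and CAGACA at 239 bases and, on the other strand, at 65 bases before the start. Windows of 250 bases upstream of all 32851 listed starts held TATAAA in 12.4%, CCAAT in 33.8%, GGGCGG in 32.7%, CAGACA in 17.1% and TGANTCA in 6.75%. Over the 35 collagen windows the shares were 14.3%, 34.3%, 60.0%, 22.9% and 2.86%. These are matches of letters in a fixed window and say nothing of binding.

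**Figure D2:**
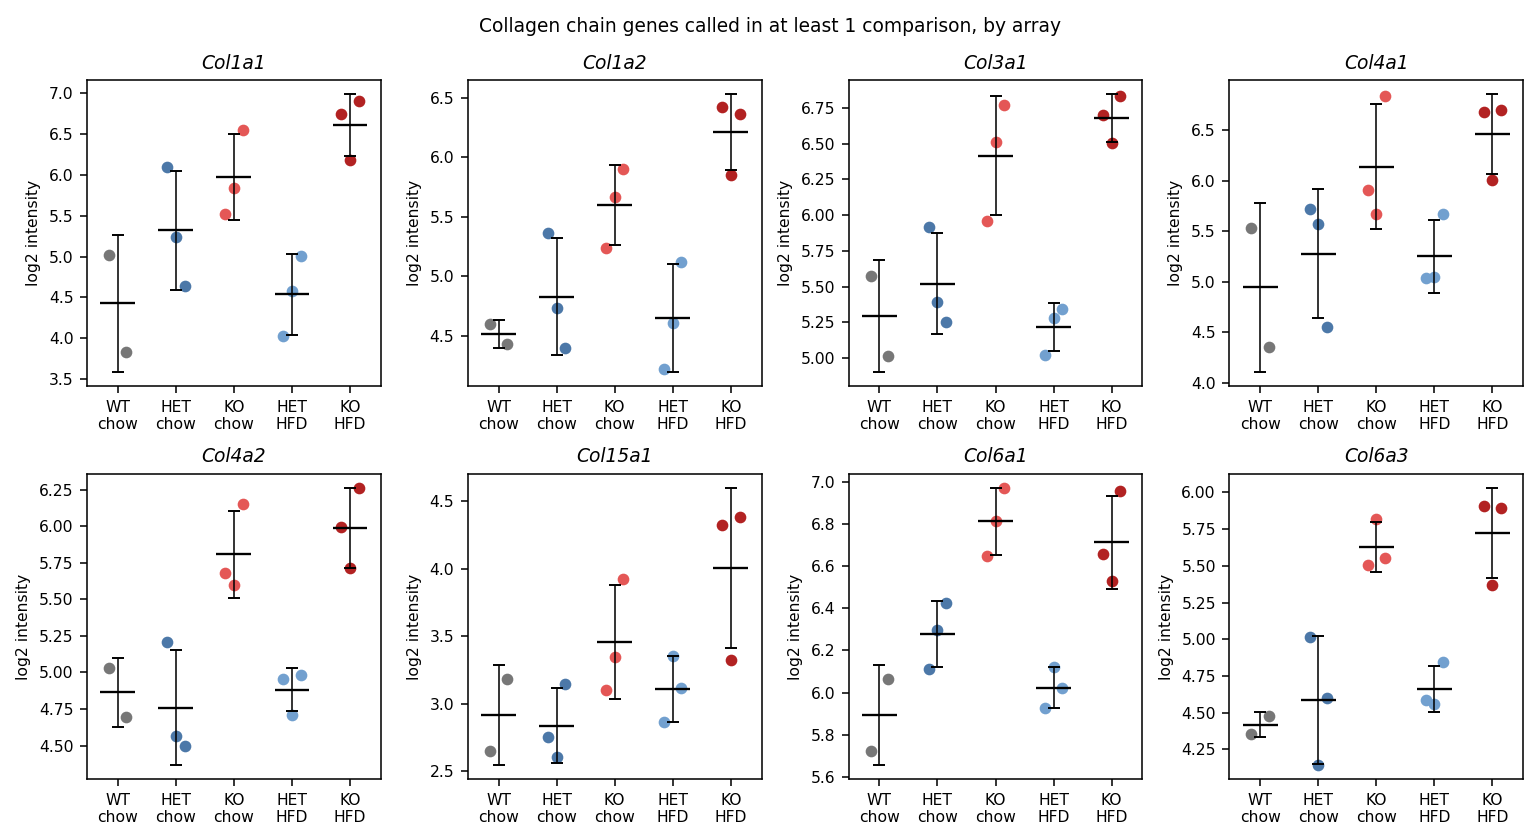
Log2 intensity (y axis) of the 8 called collagen genes in each liver (points), by genotype and diet (x axis), with the group mean as a line and the SD as bars; each panel has its own scale. The 6 KO livers are above the 6 HET livers for Col3a1, Col4a2, Col6a1 and Col6a3, and the groups overlap for the others.

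Col5a1 and Col5a2, chains of type V collagen, which starts type I fibrils and sets their width, were not called beside types I and III. Col5a1 measured 4.05 and 4.20 in WT, 4.24, 4.26 and 4.05 in HET and 3.90, 4.49 and 4.50 in KO livers on chow, and 4.23, 3.88 and 3.66 in HET and 4.17, 4.63 and 4.43 in KO livers on HFD. HET and KO livers overlapped on either diet. Its difference on HFD was 0.49 ± 0.19 (adjusted p = 0.152). Col5a2 measured 5.32 and 3.41 in WT, 6.14, 6.23 and 4.08 in HET and 5.88, 5.49 and 5.17 in KO livers on chow, and 3.90, 4.34 and 4.57 in HET and 4.35, 3.96 and 4.39 in KO livers on HFD. It was lower on HFD than in most chow livers whatever the genotype, and the low chow values belonged to N1 and P1, the youngest mice of the study. KO minus HET for Col5a2 was 0.03 ± 0.53 on chow and -0.03 ± 0.53 on HFD. HFD minus chow was -1.22 ± 0.53 in HET (adjusted p = 0.462) and -1.28 ± 0.53 in KO livers (adjusted p = 0.399), and both were called once N1 and P1 were left out, an alternative chosen after seeing the data. The remaining 6 fibrillar genes (Col2a1, Col5a3, Col11a1, Col11a2, Col24a1 and Col27a1) were not called in any comparison, and 4 of them were dim.

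Among basement membrane chains, the ubiquitous pair Col4a1 and Col4a2 was higher in KO livers together with Col15a1, a chain of the outer face of basement membranes. Col4a2 measured 5.03 and 4.70 in WT, 5.21, 4.57 and 4.49 in HET and 5.68, 5.60 and 6.15 in KO livers on chow. Under HFD its values were 4.96, 4.71 and 4.98 in HET and 6.00, 5.71 and 6.26 in KO livers. The 6 KO livers were above all others, and the difference was 1.05 ± 0.21 on chow (2.07-fold, adjusted p = 0.0233) and 1.11 ± 0.21 on HFD (2.15-fold, adjusted p = 0.00682). The interaction of Col4a2 with diet was 0.06, with a 95% interval from -0.59 to 0.70. The chow call was lost without F2, P1 or I1 (adjusted p from 0.0621 to 0.109), and a call against WT appeared without F1 (adjusted p = 0.0352).

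Col4a1 measured 5.54 and 4.35 in WT, 5.72, 5.57 and 4.55 in HET and 5.91, 5.67 and 6.84 in KO livers on chow, and 5.04, 5.04 and 5.67 in HET and 6.68, 6.00 and 6.70 in KO livers on HFD. N1 and P1 were again the low chow livers, and the groups overlapped slightly on chow but not on HFD. Over both diets the difference of Col4a1 was 1.03 ± 0.28 (2.05-fold, adjusted p = 0.0339), and the call was lost without P1, I1, A2, B1, C2 or C4 (adjusted p from 0.0664 to 0.0833). Col15a1 measured 2.65 and 3.18 in WT, 2.76, 2.61 and 3.15 in HET and 3.10, 3.35 and 3.92 in KO livers on chow, and 2.86, 3.35 and 3.12 in HET and 4.32, 3.33 and 4.38 in KO livers on HFD. On HFD its KO livers C2 and C4 stood above all HET livers, whereas C3 lay among them. Its difference over both diets was 0.76 ± 0.20 (1.69-fold, adjusted p = 0.0337). That call was lost on leaving out any of 8 arrays, F1, F2, H2, I1, A2, B2, C2 or C4 (adjusted p from 0.0559 to 0.0865), and a call on HFD appeared without C3 (adjusted p = 0.0132).

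Col4a1 and Col4a2 lie on opposite strands and overlap at their 5′ ends. The starts of their RefSeq windows are 21 bases apart, so that these 300-base windows share 78 bases, and the outermost starts of the annotated genes are 84 bases apart. The other type IV chains, Col4a3 to Col4a6, were dim, with means from 1.57 to 2.07, and none was called. Col18a1 measured 8.99 and 8.74 in WT, 8.65, 8.81 and 8.67 in HET and 9.08, 9.05 and 8.83 in KO livers on chow, and 9.22, 8.87 and 8.80 in HET and 8.58, 8.67 and 8.58 in KO livers on HFD. Against HET, KO livers were thus the higher ones on chow and the lower ones on HFD, without overlap on either diet. The differences were 0.28 ± 0.13 (adjusted p = 0.372) and -0.35 ± 0.13 (adjusted p = 0.126), and neither passed. The interaction of genotype and diet for Col18a1, -0.63 ± 0.18, had an adjusted p of 0.281.

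Of the type VI chains, Col6a3 was called higher in KO than in HET livers on either diet and Col6a1 on HFD, and both were called against WT, while Col6a2 was not called in any comparison. Col6a3, the longest chain of type VI, measured 4.36 and 4.48 in WT, 5.01, 4.14 and 4.60 in HET and 5.50, 5.82 and 5.55 in KO livers on chow, and 4.59, 4.56 and 4.84 in HET and 5.91, 5.37 and 5.89 in KO livers on HFD. All 6 KO livers were above all other livers. The difference was 1.04 ± 0.21 from HET on chow (2.06-fold, adjusted p = 0.0214), 1.21 ± 0.23 from WT (2.31-fold, adjusted p = 0.0170) and 1.06 ± 0.21 on HFD (2.09-fold, adjusted p = 0.00720). The chow calls were lost without F2, H2 or I1 against HET (adjusted p from 0.0649 to 0.0948) and without G1, N1 or H2 against WT (adjusted p from 0.0697 to 0.116).

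Col6a1 measured 5.72 and 6.06 in WT, 6.11, 6.30 and 6.42 in HET and 6.65, 6.82 and 6.97 in KO livers on chow, and 5.93, 6.12 and 6.02 in HET and 6.66, 6.53 and 6.96 in KO livers on HFD. The KO livers were again above all others, with HET between WT and KO on chow. The difference of Col6a1 was 0.92 ± 0.16 from WT (1.89-fold, adjusted p = 0.0105), 0.53 ± 0.14 from HET on chow (adjusted p = 0.0892) and 0.69 ± 0.14 on HFD (1.61-fold, adjusted p = 0.0111). The call against WT was lost without G1 (adjusted p = 0.116) and the call on HFD without C4 (adjusted p = 0.0539). A second, dim probe set of Col6a1 was not called (-0.05 ± 0.12 on HFD), and with the mean of both probe sets the HFD difference was 0.32 and not called (adjusted p = 0.105). Col6a2 measured 5.05 and 4.22 in WT, 4.68, 4.70 and 4.64 in HET and 4.92, 4.80 and 4.87 in KO livers on chow, and 4.39, 4.49 and 4.88 in HET and 5.39, 4.63 and 5.11 in KO livers on HFD. Its difference over both diets was 0.32 ± 0.15 (adjusted p = 0.237). The upstream sequences of the type VI genes that were called are shown in the same way as above.
Col6a1, chr10:76726045-76726294, minus strand: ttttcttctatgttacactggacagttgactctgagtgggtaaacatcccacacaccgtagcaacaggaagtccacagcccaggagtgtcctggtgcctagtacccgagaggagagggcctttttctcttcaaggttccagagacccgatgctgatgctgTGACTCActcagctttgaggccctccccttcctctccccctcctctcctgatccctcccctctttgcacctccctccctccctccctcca
Col6a3, chr1:90844002-90844221, minus strand: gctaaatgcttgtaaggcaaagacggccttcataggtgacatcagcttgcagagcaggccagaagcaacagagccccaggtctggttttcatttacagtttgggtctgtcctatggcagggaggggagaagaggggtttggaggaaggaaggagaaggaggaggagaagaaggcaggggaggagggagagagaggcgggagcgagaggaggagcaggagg
The Col6a1 window holds TGANTCA at 90 bases before the start, read as TGACTCA, and none of the other motifs. The Col6a3 window was cut to 220 bases, because the 30 of its 250 nearest the start lie within the annotated span of Col6a3 itself. The 220 bases hold none of the 5 motifs, and the 30 were not searched.

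Among the other collagens, no chain outside type VI was called. Col14a1 measured 7.81 and 7.16 in WT, 8.17, 7.81 and 7.30 in HET and 7.74, 7.84 and 7.89 in KO livers on chow, and 7.73, 7.47 and 7.71 in HET and 7.88, 7.69 and 7.70 in KO livers on HFD. The spread among controls on chow, again with N1 and P1 lowest, was wider than any difference between group means, and KO minus HET over both diets was 0.09 ± 0.14. Col8a1, a chain of hexagonal networks in vessel walls, was close to the array median, at 1.86 to 2.75 in WT and HET livers and 2.32 to 3.05 in KO livers. Its difference over both diets was 0.47 ± 0.16 (adjusted p = 0.0966), and it was called without F2 or without H1 (adjusted p from 0.0415 to 0.0462). Col7a1, the anchoring fibril chain, at -0.19 ± 0.11, and Col19a1, at -0.21 ± 0.08, had the next smallest p-values in the lower direction, and both were dim. The 9 fibril-associated chains had a median difference of 0.05 over both diets, the 4 transmembrane chains of -0.06 and the 3 chains of hexagonal networks of -0.13.

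**Figure D3:**
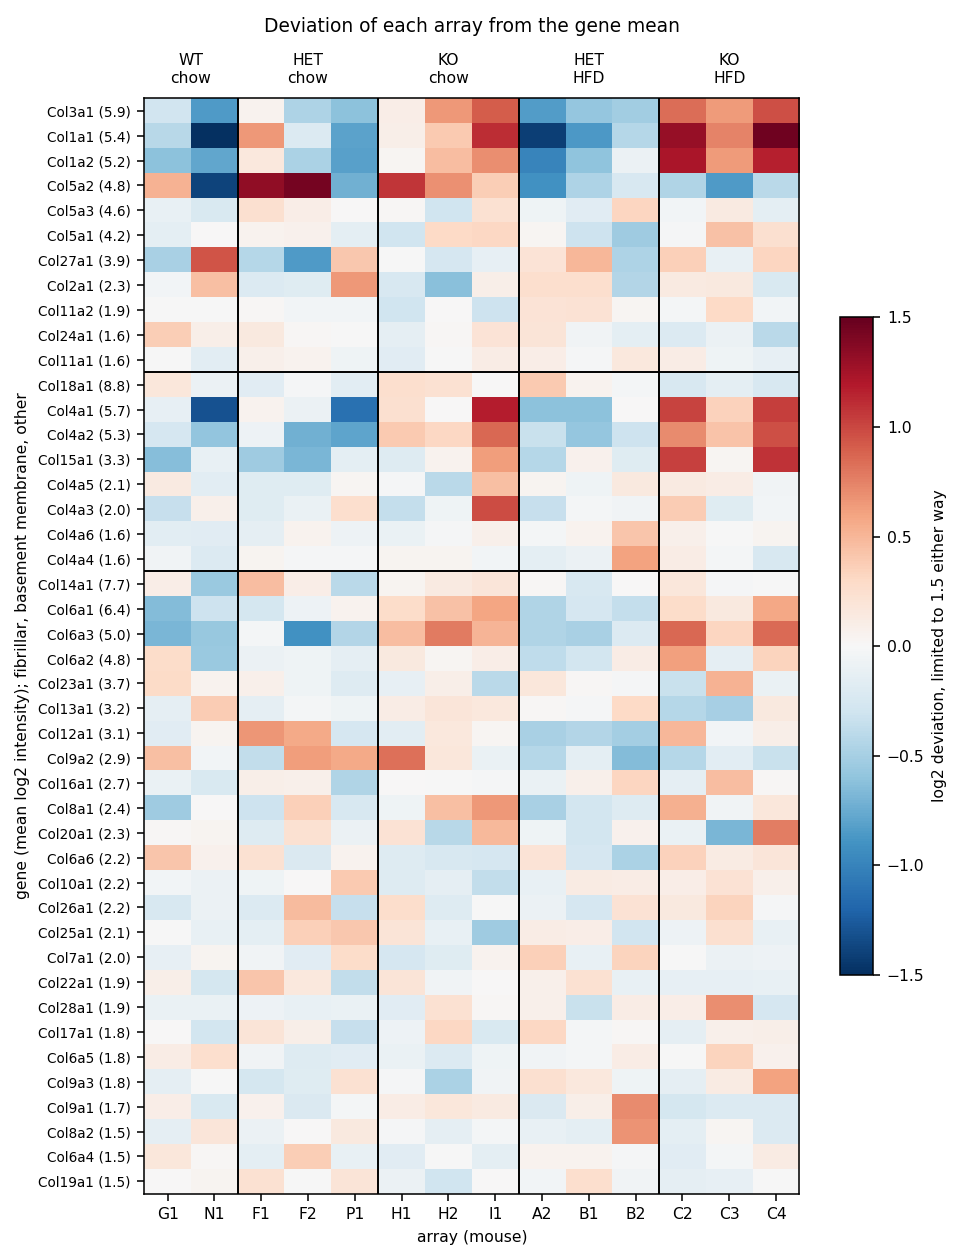
Deviation of each liver (columns, by group) from the mean of the gene (rows, mean log2 intensity in brackets, by class and mean) for all 44 collagen chain genes; colour runs from -1.5 to 1.5 log2 and is limited there. The rows of Col1a1, Col1a2, Col3a1, Col4a1, Col4a2, Col6a1 and Col6a3 turn red in the KO columns, while in the row of Col5a2 the chow livers other than N1 and P1 are red and every HFD liver is blue.

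Within the groups some livers were the highest or lowest for most of the called chains. On HFD the KO liver C3 was the lowest of its group for all 8 called chains and C4 the highest for 6 of them. On chow I1 was the highest KO liver for 7 of the 8 and H1 the lowest for 6. Among HET livers F1 was the highest on chow for 6 of 8, and A2 was the lowest and B2 the highest on HFD for 6 of 8 each. Col6a1 ran the other way in the HET livers on chow, where P1 was its highest and F1 its lowest. The chains are read from the same livers and are not independent readings of a group.

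Chains of the same trimer were compared within groups, as deviations from the group mean over the 14 arrays, for 7 pairs fixed with earlier results known. Col1a1 and Col1a2 rose and fell together across mice (Pearson r = 0.89, adjusted p = 0.00518; Spearman rho = 0.881, adjusted p = 0.00518; permutation tests within groups). Without C4 and N1, the arrays farthest from the median, r was 0.964. Col4a1 and Col4a2 did so too (r = 0.796, adjusted p = 0.0299; rho = 0.785, adjusted p = 0.0241; permutation tests), but without I1 and N1 r was 0.706 and rho 0.671, with permutation p-values of 0.139 and 0.0754, so the relation no longer passed over the other 12 arrays although its size was similar. Col6a1 had no such relation with Col6a2 (r = -0.157) or Col6a3 (r = 0.106), and neither had Col5a1 with Col5a2 (r = -0.209), the dim pair Col4a3 and Col4a4 (r = 0.0538) or Col8a1 and Col8a2 (r = 0.174). Their adjusted permutation p-values lay between 0.719 and 0.787.

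**Figure D4:**
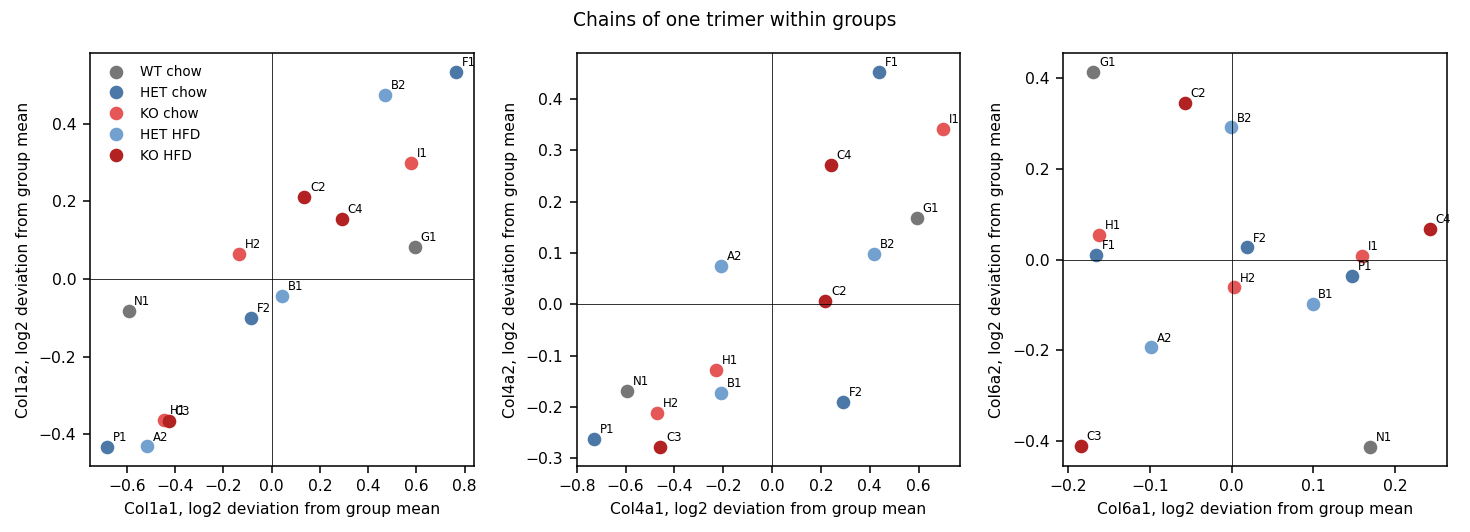
Deviation of each liver from its group mean (log2) for 3 pairs of chains of the same trimer, with arrays named and coloured by group. Col1a1 against Col1a2 and Col4a1 against Col4a2 lie along a rising line (r = 0.89 and 0.796), Col6a1 against Col6a2 does not (r = -0.157).

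The difference between chains within an array is given as a description for pairs chosen after their values were seen, with no test. Col6a3 minus Col6a2 ran from 0.59 to 1.02 in KO and from -0.56 to 0.33 in HET livers on chow, and from 0.52 to 0.79 and from -0.03 to 0.20 on HFD. The genotypes did not overlap on either diet. Col3a1 minus Col5a2, neighbouring genes on chromosome 1, ran from 0.08 to 1.60 in KO and from -0.84 to 1.16 in HET livers on chow, where they overlapped, and from 2.35 to 2.55 and from 0.78 to 1.13 on HFD. Averaged over diets, KO minus HET of the difference was 0.29 for Col6a1 minus Col6a2, 0.19 for Col1a1 minus Col1a2 and -0.05 for Col4a1 minus Col4a2.

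The comparison of diets and the loss of 1 Lmna copy gave no collagen call. HET mice were older on HFD (30 to 30.4 weeks) than on chow (24 to 26.4 weeks). KO mice were younger on HFD (35.3 against 38.9 weeks). Diet and age thus cannot be told apart within a genotype, which also holds for the interaction. HFD minus chow had 0 calls among the 44 genes in HET livers, where 0.198% of all genes were called by limma, and 0 in KO livers, where 0.316% were. At an unadjusted p under 0.05 there were 3 lower chains in HET livers and 5 higher and 4 lower chains in KO livers. Of all 22180 genes, 1060 were higher and 1212 lower in HET livers, and 1357 higher and 1098 lower in KO livers. Col1a1 was 0.78 ± 0.41 lower on HFD in HET livers (a difference of -0.78) and 0.64 ± 0.41 higher in KO livers, and Col3a1 was at -0.31 ± 0.23 and 0.26 ± 0.23. Neither passed. For HET minus WT on chow limma called 0 chains and 0% of all genes. At an unadjusted p under 0.05 there was 1 higher chain, Col6a1 at 0.38 ± 0.16, and 1 lower. Of all 22180 genes, 490 were higher and 464 lower in this way. The interaction of genotype and diet had 0 calls among the chains, where 0.0361% of all genes were called. At an unadjusted p under 0.05, 1166 of all 22180 genes were above 0 and 1021 below. By the same rule 4 chains were above and 3 below 0. Of these, Col12a1, a fibril-associated chain singled out after its values were seen, had 0.98 ± 0.30 (adjusted p = 0.321). It measured 3.77, 3.67 and 2.86 in HET livers on chow and 2.63, 2.67 and 2.60 in HET livers on HFD, against 2.95 to 3.61 in KO livers. HET livers on HFD were thus the lowest, and without P1 the interaction and the diet difference in HET livers were called.

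Genes that act on collagen are given by step, from the making of the chains to their removal. The lists of the pathway were chosen with earlier results known. Counts are over both diets, where 6.52% of all genes were called higher and 2.9% lower. Of 14 measured genes for hydroxylation and glycosylation, 2 were called, both higher, with a median difference of 0.15. These were P3h2, a prolyl 3-hydroxylase, at 0.38 ± 0.11, and Plod1, a lysyl hydroxylase, at 0.27 ± 0.08. Of 9 genes for folding and export, 1 was called, Fkbp7, an endoplasmic reticulum prolyl isomerase, at 0.50 ± 0.12. Of 7 genes for procollagen cleavage, 1 was higher and 1 lower. Pcolce, which enhances removal of the C-propeptide, had 0.94 ± 0.21 (adjusted p = 0.0127), and its relative Pcolce2 had -0.71 ± 0.19 (adjusted p = 0.0338). Of 5 cross-linking genes, 2 were called higher, Tgm2, a transglutaminase, and Loxl3, a lysyl oxidase, at 0.59 ± 0.17.

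Tgm2 measured 8.63 and 8.27 in WT, 8.96, 9.07 and 8.47 in HET and 9.13, 9.27 and 9.66 in KO livers on chow, and 8.14, 8.47 and 8.56 in HET and 9.80, 9.78 and 9.93 in KO livers on HFD. The KO livers were above all others, most clearly on HFD, where the difference was 1.45 ± 0.18 (2.73-fold, adjusted p = 5.46e-04). Of 13 genes of collagen degradation and its inhibitors, 4 were called over both diets, all higher, where 6.52% of all genes were called higher. Mmp2, a gelatinase made by stellate cells and fibroblasts, measured 4.14 to 5.14 in WT and HET livers and 5.95 to 6.29 in KO livers on chow, and 4.60 to 5.26 in HET and 5.65 to 6.83 in KO livers on HFD. Its difference was 1.47 ± 0.30 on chow and 1.49 ± 0.30 on HFD (adjusted p = 0.0265 and 0.00974). Timp2, an inhibitor that also helps to activate Mmp2, was higher by 0.85 ± 0.14 and 0.71 ± 0.14 (adjusted p = 0.00653 and 0.00714). Mmp13, the main interstitial collagenase of the mouse, had 1.60 ± 0.43 over both diets (adjusted p = 0.0332), and Pepd, which splits proline dipeptides, 0.38 ± 0.08.

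Of 9 collagen receptors, 4 were called higher over both diets, where 6.52% of all genes were, with a list median of 0.45. Mrc2, an endocytic receptor for collagen, was higher on chow by 1.01 ± 0.16 (adjusted p = 0.00587) and on HFD by 0.65 ± 0.16. Ddr1, a collagen-binding kinase of epithelia, was higher by 1.73 ± 0.34 over both diets and by 1.95 ± 0.49 on HFD (adjusted p = 0.0280). It measured 2.81 and 4.05 in WT, 2.63 to 3.25 in HET and 3.63 to 5.62 in KO livers on chow, where it was not called and N1, a WT liver, lay within the KO range, and 2.90 to 3.67 in HET and 4.61 to 5.91 in KO livers on HFD. The integrin chain Itga2, at 1.10 ± 0.22, and the leukocyte receptor Lair1, at 0.96 ± 0.24, were called as well. Of 14 partners in basement membranes, 4 were called higher and 2 lower over both diets, where 6.52% and 2.9% of all genes were. Lama2, a laminin chain of mesenchymal basement membranes, was higher by 0.81 ± 0.12 over both diets (adjusted p = 0.00118). Nid1, which links laminin to type IV collagen, was called over both diets and was higher by 1.29 ± 0.21 on HFD (adjusted p = 0.00284), whereas its difference on chow was 0.72 ± 0.21 and was not called (adjusted p = 0.128). Agrn, a heparan sulphate proteoglycan, was higher by 0.44 ± 0.09, and the laminin chain Lamb3 by 0.73 ± 0.16. The laminin chains Lama1, at -0.55 ± 0.15, and Lama3, at -0.72 ± 0.18, were the lower ones and are named after their values were seen.

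**Figure D5:**
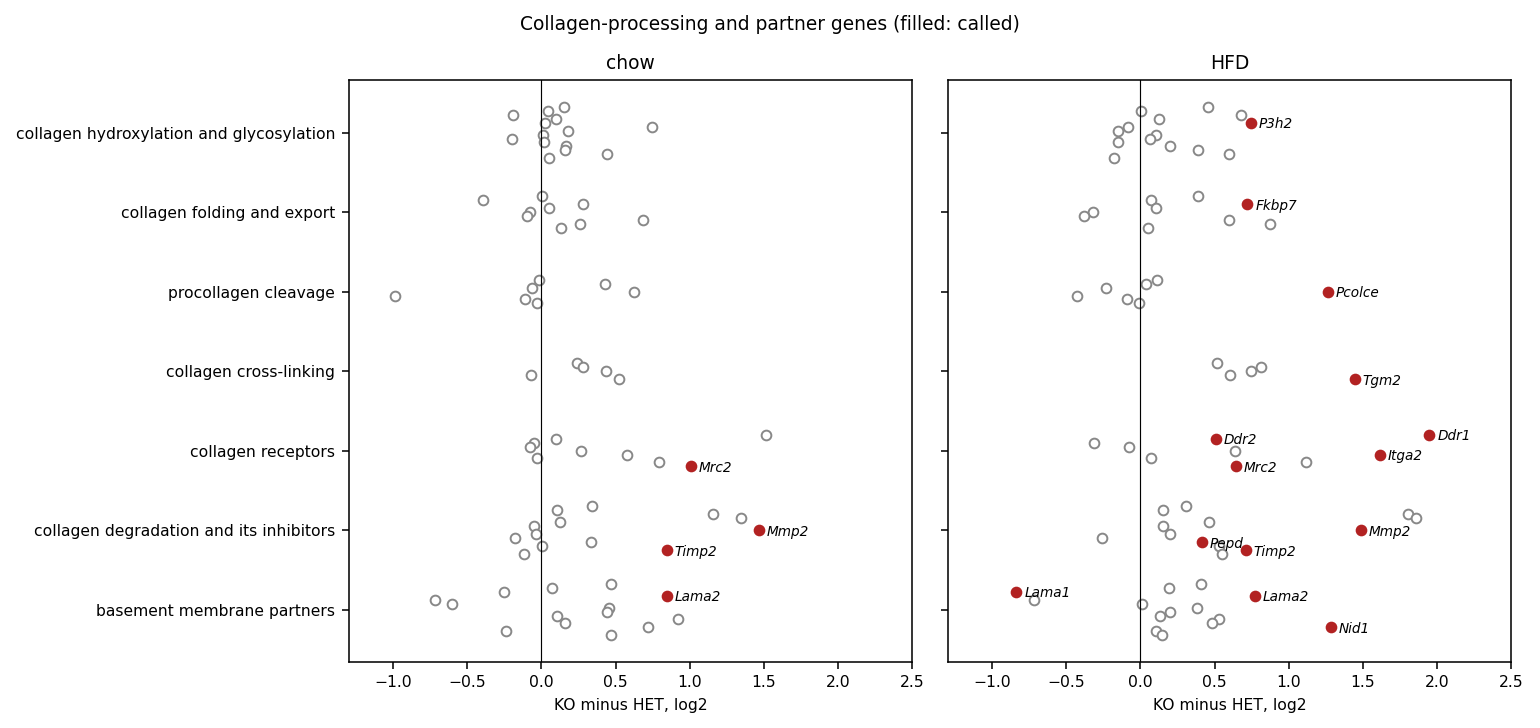
KO minus HET (x axis, log2) on chow and on HFD for the genes of 7 pathway lists (rows), with filled and named points for called genes. Mmp2, Timp2, Mrc2 and Lama2 are called on both diets, and Lama1 is the called gene to the left of 0. The genes called only on HFD include Tgm2, Pcolce, Ddr1, Itga2 and Nid1. On HFD the hydroxylation and folding lists have 1 call each, the degradation list 3 and the receptors 4.

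Markers of the cells that make collagen were read beside these values. Of all genes, 6.52% were called higher and 2.9% lower over both diets. These shares were 5.5% and 2.06% on HFD and 1.44% and 0.478% on chow. In whole liver, more cells of a type and more RNA per cell cannot be told apart. Of 12 stellate cell markers, 2 were higher and 3 lower in KO livers over both diets. Pdgfrb (0.79 ± 0.19) and Tagln (0.48 ± 0.12) rose, while Lrat, the retinoid-storing enzyme of quiescent stellate cells (-0.68 ± 0.16), Ecm1 (-0.75 ± 0.14) and Reln (-0.40 ± 0.11) fell. By diet, Lrat was called on chow (-1.22 ± 0.23, adjusted p = 0.0162) and had -0.15 ± 0.23 on HFD, whereas Reln had -0.03 ± 0.16 on chow and was called on HFD (-0.76 ± 0.16, adjusted p = 0.0112). Ecm1 was called on HFD (-0.95 ± 0.20) and had -0.56 ± 0.20 on chow (adjusted p = 0.231). The summed linear intensity of the 12 ranged from 1562 to 2286 in HET and 1533 to 1722 in KO livers on chow, and from 2143 to 2271 and 1672 to 2221 on HFD. Of 7 portal fibroblast markers, 3 rose, Cd34 (1.51 ± 0.30), Fbln2 (0.64 ± 0.13) and Mfap4 (0.50 ± 0.14). Their summed intensity was 49 to 68 in HET and 71 to 107 in KO livers on chow, and 47 to 64 and 87 to 135 on HFD, so that KO was above HET on either diet. Cd34 alone gave 21.6 to 57.7 in KO livers on chow and 30.7 to 77.8 on HFD. Without it the sums were 36.8 to 46.4 in HET and 46.9 to 50.8 in KO livers on chow, where they nearly touched, and 35.6 to 43.4 and 56.5 to 57.5 on HFD. Gli1 and Slit2 of this list were below the array median in most arrays. The part of these cells in the collagen values was not tested.

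The markers of other cells were read in the same way, beside the same shares of all genes. Of 5 cholangiocyte markers 1 rose, Epcam (0.88 ± 0.21), and Krt19 and Cldn7 were below the array median in most arrays. The sums of the list were 72 to 135 in HET and 132 to 210 in KO livers on chow and 95 to 146 and 134 to 181 on HFD. Sox9, the brightest of the 5 and not called, weighs most in these sums. It lay at 5.57 to 6.84 in HET and 6.62 to 7.37 in KO livers on chow, and at 6.07 to 6.93 and 6.74 to 7.19 on HFD. Sums and Sox9 thus overlapped on either diet. Of 9 endothelial markers none was called over both diets and 1 was lower on HFD, Stab2 (-0.40 ± 0.11, adjusted p = 0.0461), and the sums ranged from 2525 to 2643 in HET and 2559 to 2794 in KO livers on chow and from 2793 to 3018 and 2935 to 3153 on HFD. No smooth muscle (6), mesothelial (6) or lymphocyte (6) marker was called over both diets. On HFD, Smtn of the smooth muscle markers was higher in KO livers by 0.64 ± 0.17 (adjusted p = 0.0345). All 6 lymphocyte markers had positive differences on HFD, with a median of 0.57, and the call among them was Ncr1 (1.41 ± 0.39, adjusted p = 0.0461), which was below the array median in most arrays. The summed lymphocyte intensity was 66 to 88 in HET and 120 to 143 in KO livers on HFD, and 53 to 129 and 72 to 75 on chow. Of 8 macrophage markers 1 fell, Timd4 (-1.45 ± 0.16). Of 8 hepatocyte markers 1 fell over both diets, Cps1 (-0.37 ± 0.07), and 3 fell on HFD, where the summed intensity was 46972 to 48835 in HET and 40777 to 42857 in KO livers. Whether these shifts bear on the collagen values was not tested.

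Age limits all of the KO comparisons. It limits the diet comparisons too, since HET mice were older and KO mice younger on HFD than on chow. With age as a linear term none of the 19 collagen calls made between KO and control livers remained, and for Col1a1, Col1a2, Col3a1, Col4a1 and Col4a2 the sign over both diets turned. That slope rests on age gaps of 2.4 weeks within WT, 2.4 weeks within HET on chow and 0.4 weeks within HET on HFD, and is carried over gaps of 13.3 and 5.17 weeks between KO and HET livers. All mice are separate animals per the labels, with no statement on litters.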

How the data were processed

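Total RNA of each liver (400 ng) was made into biotinylated cDNA with the Affymetrix WT Plus kit, per the labels. The authors deposited a log2 intensity for every probe set. The submitters' processing notes name RMA and limma with no version; a batch adjustment is not given in the sources. Of 41345 probe sets, 23521 had 1 gene symbol, 1814 several and 16010 none, and only the first were used. No further scaling and no filter on level were applied. Group means were fitted over 14 arrays with limma 3.58.1 in R 4.3.3 (9 residual and 3.83 prior degrees of freedom), with 8 contrasts and Benjamini-Hochberg adjustment over 22180 genes. The procedure was tested on simulated data. Errors are standard errors of the fit unless marked SD, and the number of arrays limits the precision. The members, classes, lists and pairs were chosen with earlier results of these data known. Named were all called chains, the 13 chains known from liver, the 3 others with the smallest p over both diets, and up to 4 called genes per pathway list. Marker genes and all other names were chosen after their values were seen. Promoter windows are those of RefSeq on GRCm38.p6; 9 chain genes had none, Col1a1 among them.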

Additional observations from a re-analysis of the deposited data

How the results depend on the processing

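The counts of collagen chains called are given by setting. The share of all genes called moves with the setting too, so a changed count is not by itself a trait of the collagen chains. Where no share is printed beside a count, the count is not set against all genes. Fitting only the groups compared left 0 chains for KO against HET and 1 for KO against WT on chow. An adjusted p under 0.01 left 0 for both. WT and HET on chow as 1 group gave 4 for KO against HET on chow. Median centring gave 12 for KO against HET on HFD and 13 over both diets, where 20.1% and 26.9% of all genes were called. Age as a linear term gave 2 for KO against HET on chow, both lower, 1 for KO against WT, 1 for KO against HET on HFD, 2 over both diets, 3 for HFD against chow in HET livers and 2 for the interaction, none of them a chain called without it. Among chains called in a comparison with or without this term, it turned the sign on chow of Col14a1 (-3.69), Col4a2 (-1.02) and Col5a2 (-10.70). Against WT it turned that of Col3a1 (-1.27) and Col5a2 (-9.42), and on HFD that of Col1a1 (-0.090). Over both diets it turned Col14a1 (-2.51), Col1a1 (-2.50), Col1a2 (-0.27), Col3a1 (-0.50), Col4a1 (-3.14) and Col4a2 (-0.36). Sign turns of chains called in neither fit are not listed. Chosen after seeing the data, leaving out F1 and F2 gave 0 for KO against HET on chow. Leaving out N1 and P1 gave 0 for KO against HET on chow, 1 for KO against WT, 2 and 1 for the diet in HET and KO livers, and 1 for the interaction. The relation of Col4a1 and Col4a2 without I1 and N1, the arrays whose Col4a1 level was farthest from its median, had r = 0.706 and no longer passed. Leaving out each array in turn gave 0 to 3 chains for KO against HET on chow, where 0.897% to 2.34% of all genes were called. The 0 came without F2 (0.897%) or I1 (0.911%). For KO against WT the count was 1 to 4, where 0.96% to 1.85% were called. KO against HET had 5 to 7 on HFD (4.38% to 8.06%) and 6 to 9 over both diets (6.64% to 9.17%). HFD against chow in HET livers and the interaction had 0 to 1, the 1 without P1 (0.739% and 0.194%). HET against WT and HFD against chow in KO livers had 0 throughout. No count against WT is given without G1 or N1, which leaves 1 WT liver. Array weights, a trended and robust prior, the array letter as a random block, averaged probe sets and a mean of at least 4 kept every count within 1.5 times. No array letter is shared between groups, so the random block could not separate a letter from genotype or diet. No paired analysis was possible because the array names, which carry the numbers, differ between groups and pair no mice.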
